A study of Mus musculus with 6 samples.

Results

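The ligands and receptors of the tumour necrosis factor (TNF) superfamily were described here in sorted stromal cells of the mouse colon during experimental colitis. Members were all genes of the deposited tables whose symbol was Tnfsf or Tnfrsf followed by a number and, in some, a letter. The rule gave 31 of 24346 genes, of which 11 were ligands (Tnfsf) and 20 were receptors (Tnfrsf). Members known by other symbols, such as Tnf, Fas and Cd40, fell outside the rule and were kept in a separate list of TNF pathway genes.

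RNA was sequenced from 6 libraries, each from 1 mouse aged 12 weeks that had been given 1% dextran sulfate sodium (DSS), which injures the colonic epithelium. The control group was 3 mice with floxed Il10ra alleles (Il10ra flox/flox, numbers 8, 9 and 43), and the Pdgfra-cre group was 3 mice with the same floxed alleles and cre recombinase driven by Pdgfra (Pdgfra cre; Il10ra flox/flox, numbers 13, 23 and 25). Every mouse carried the floxed alleles and received DSS, and no library came from a mouse without either. Live cells positive for Podoplanin and negative for CD45, CD31 and EpCAM were sorted from whole colons, so a library mixes all fibroblast and other stromal types within that gate. The comparison asked what differs in these cells when Il10ra, a chain of the interleukin-10 receptor, is targeted in cells that express Pdgfra.

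Ligands of this superfamily are mostly membrane proteins that act as trimers on a neighbouring cell, or as soluble trimers after cleavage. Their receptors fall into those with a death domain, which can start cell death, those that bind TRAF adaptors and switch on NF-kB, and decoys that bind a ligand without signalling. In the inflamed gut the family links stromal cells with T cells, B cells and macrophages, and fibroblasts are known as responders to TNF as well as sources of factors that keep B cells alive.

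Fibroblast genes were high in every library, with a summed level of 7 markers of 15802 to 19353 FPKM, the deposited unit, which scales fragments to transcript length and to the mapped fragments of the library. Il10ra was listed at 0 in 5 libraries and at 0.418 FPKM in control library 43, so its deletion could not be checked. Summed T cell markers (5 in the files) lay between 0.678 and 2.11 FPKM. The endothelial, B or plasma cell and macrophage or dendritic cell lists each held a gene at 0 in all libraries (Cdh5, Cd79b and Flt3). Other genes of these lists were present, such as Jchain (1.17 to 10.5 FPKM) and Lyz2 (9.32 to 28.8). Macrophage or dendritic cell markers (7) summed to 17.5 to 26.3 FPKM in controls and 15.7 to 36.9 in Pdgfra-cre. Pdgfra, the gene after which the cre line is named, measured 178, 186 and 199.9 FPKM in controls 8, 9 and 43 and 155, 120.5 and 174 in libraries 13, 23 and 25, all lower than any control (limma unadjusted p = 0.0395, adjusted p = 0.411). The marker sums of 2 other cell types did not overlap between the groups. Mesothelial markers (4) summed to 1.95 to 9.66 FPKM in controls and 10.8 to 57.1 in Pdgfra-cre, highest in library 23, and smooth muscle or pericyte markers (5) to 112 to 125 and 28.4 to 69.3. Not every gene of these lists separated. Of the mesothelial genes, Msln and Upk3b did, but Wt1 and Krt19 overlapped. The muscle or pericyte sum separated through Myh11, Des and Cnn1, whereas its other genes, Rgs5 and Cspg4, overlapped. Neutrophil markers (5) overlapped, at 1.03 to 11.0 and 10.8 to 179 FPKM, and the 179 was that of library 23. Library 23 also had the lowest mean correlation with the others (0.950, against 0.960 to 0.970). In bulk RNA, fewer cells of a type and less RNA per cell cannot be told apart.

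Sequences just before an annotated start of 4 members are given in lower case, credited to RefSeq (GRCm38.p6), with motif matches in capitals. Tnfrsf12a and Tnfsf8 are shown because their values stood apart between the groups, and Tnfrsf1b and Tnfsf13b because they were expressed members with a match to the core of the interferon-stimulated response element (ISRE). The first 3 lines end where the first annotated exon begins, and the last is a stretch of 30 bases around the match. That stretch lies before the more downstream start of Tnfsf13b and inside the bounds of the gene.
Tnfrsf12a, chr17:23677469-23677699, minus strand: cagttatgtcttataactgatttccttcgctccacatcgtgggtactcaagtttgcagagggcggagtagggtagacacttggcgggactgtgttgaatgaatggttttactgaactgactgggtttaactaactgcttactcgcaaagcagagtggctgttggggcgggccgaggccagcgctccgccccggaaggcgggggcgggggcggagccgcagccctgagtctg
Tnfsf8, chr4:63861348-63861534, minus strand: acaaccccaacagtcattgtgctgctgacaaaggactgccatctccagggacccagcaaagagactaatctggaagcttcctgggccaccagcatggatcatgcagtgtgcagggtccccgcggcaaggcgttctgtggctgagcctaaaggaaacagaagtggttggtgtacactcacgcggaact
Tnfrsf1b, chr4:145246871-145247120, minus strand: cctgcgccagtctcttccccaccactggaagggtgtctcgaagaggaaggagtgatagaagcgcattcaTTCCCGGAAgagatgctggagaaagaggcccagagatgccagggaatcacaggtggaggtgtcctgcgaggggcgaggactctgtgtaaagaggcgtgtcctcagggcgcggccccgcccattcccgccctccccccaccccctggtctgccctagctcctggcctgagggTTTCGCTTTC
Tnfsf13b, chr8:10006603-10006632, plus strand: atcttacaaaaactGAAAGTGAAAtgcgga

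Motifs were searched on both strands in the 250 bases before each start, as GAAANNGAAA for the ISRE core, TTCNNNGAA for the STAT element GAS, TGANTCA for AP-1, and the NF-kB consensus. Of all 32851 windows, 2.98% held the ISRE core, 7.02% GAS, 6.75% AP-1 and 7.25% NF-kB. Among 28 windows of members, 4 held the ISRE core (Tnfsf13b, Tnfrsf1b, Tnfrsf14 and Tnfrsf17). GAS was held by 5 of these windows, among them that of Tnfrsf1a, AP-1 by 5 and NF-kB by 3. The Tnfsf13b window also held an AP-1 match, and the Tnfrsf1b window a GAS match. The ISRE match of Tnfsf13b was found for the more downstream of its starts. No window of Tnfrsf12a, Tnfsf8 or Tnfsf10 held any of these 4 motifs. A match is a string of letters and not a measured binding site.

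A member counted as expressed when 3 or more libraries reached 1 FPKM, as 15 of 31 did (6 ligands and 9 receptors). Of all genes in the tables, 46.9% met the same rule. Just inside the threshold were Tnfrsf22 and Tnfrsf26, whose 3 highest libraries had at least 1.10 and 1.18 FPKM. Just outside it were Tnfrsf10b and Tnfrsf9, for which that value was 0.739 and 0.529. A few genes carried most of the signal. Tnfsf13b and Tnfsf9 together made up 89.1% to 93.5% of the summed FPKM of the ligands in the 6 libraries, and Tnfrsf1a and Tnfrsf12a 78.2% to 82.5% of that of the receptors.

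**Figure D1:**
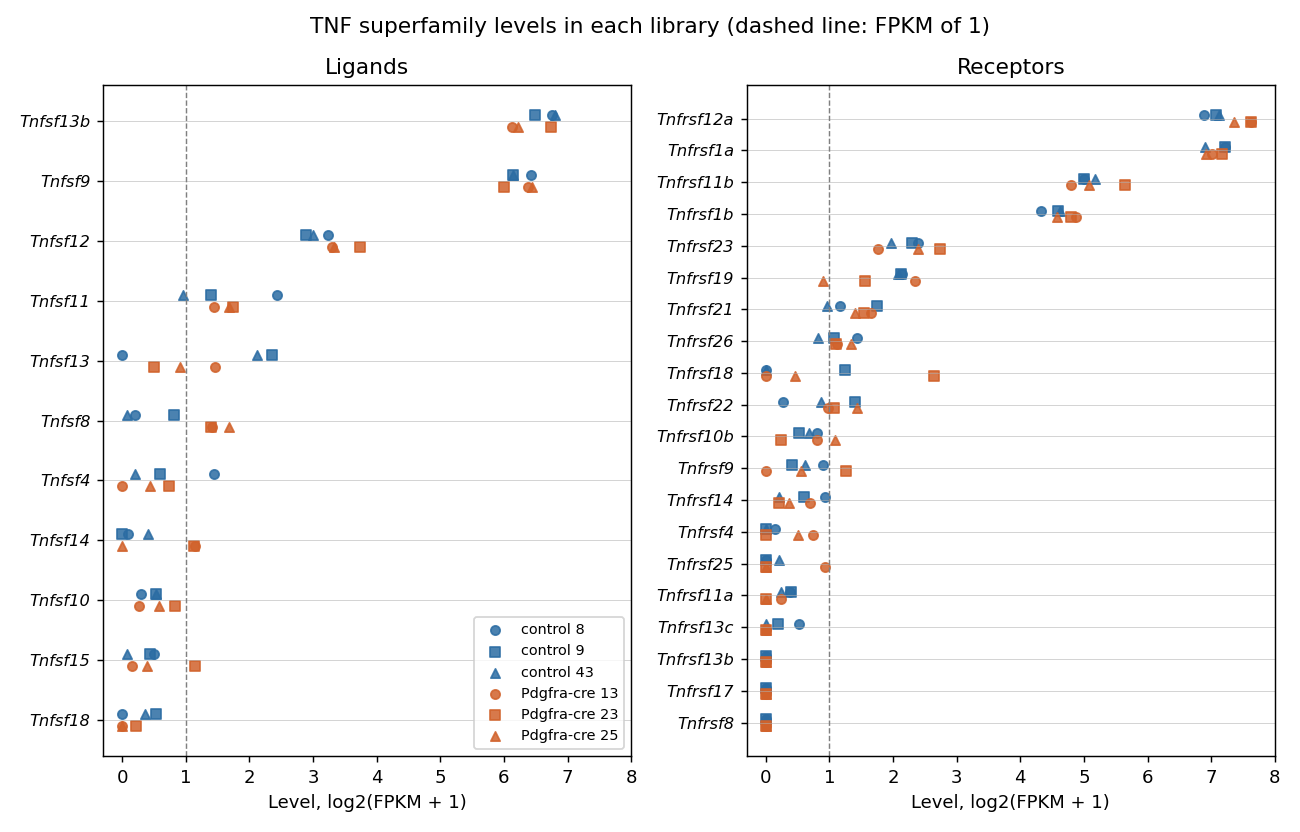
Level of each of the 31 members, as log2(FPKM + 1), in every library, with ligands on the left and receptors on the right (blue, control; orange, Pdgfra-cre; symbols mark mice). Tnfsf13b and Tnfsf9 lead the ligands, Tnfrsf12a and Tnfrsf1a lead the receptors, and 16 members lie mostly left of the dashed line at an FPKM of 1.

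No member passed the test between genotypes. With limma on log2(FPKM + 1) and Benjamini-Hochberg adjustment over the 11429 tested genes, 0 of 15 tested members had an adjusted p under 0.05, against 0% of all tested genes. Their adjusted p lay between 0.195 and 0.992. An unadjusted p under 0.05 was found for 2 members (Tnfrsf12a and Tnfsf8), against 11.0% of all tested genes. The groups did not overlap in 3 tested members, all with higher values in Pdgfra-cre (Tnfrsf12a, Tnfsf12 and Tnfsf8). Tnfsf8 met the expression threshold through Pdgfra-cre libraries only, so its place in these counts was partly fixed by the filter. Over the other 14 tested members, a count added after the values were seen, 1 had an unadjusted p under 0.05, 2 did not overlap and 10 were above 0. Of all tested genes, 16.4% did not overlap, 8.07% with higher and 8.29% with lower values in Pdgfra-cre. The median log2 fold change was 0.081 over the 15 members and 0.0012 over all tested genes, and 11 members were above 0 against 50.3% of all genes. These counts are over few genes and describe them only. Without library 23, Tnfsf8 was not tested. The tested members that did not overlap were then Tnfrsf12a and Tnfsf12, higher in Pdgfra-cre, and Tnfsf13b, lower. Of all tested genes, 12.6% did not overlap in each direction. An unadjusted p under 0.05 then belonged to Tnfrsf12a (0.00739) and Tnfsf13b (0.00486), against 9.21% of all tested genes.

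**Figure D2:**
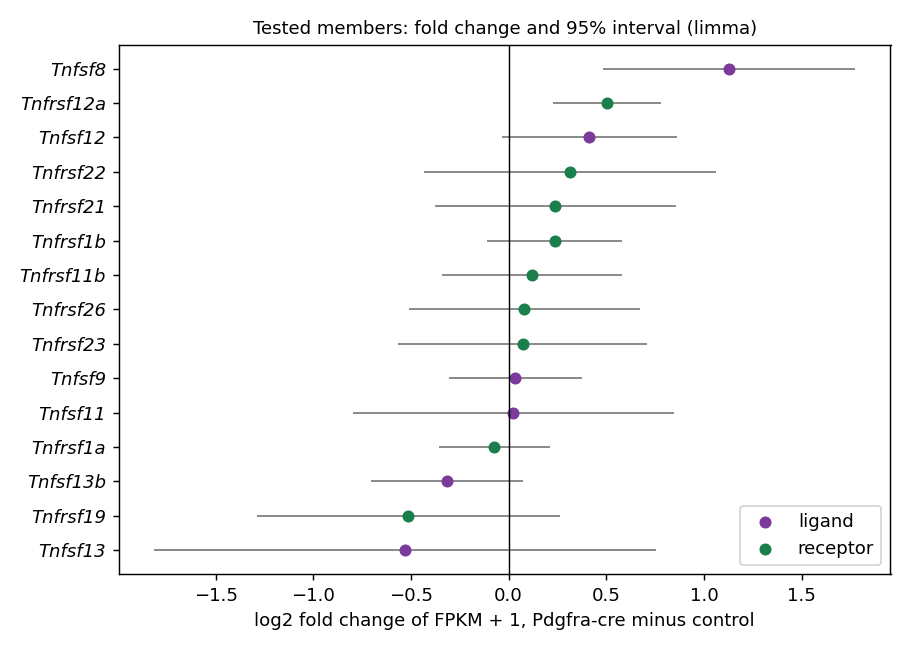
Log2 fold change of FPKM + 1, Pdgfra-cre minus control, with 95% intervals from limma, for the 15 tested members (purple, ligands; green, receptors). The intervals of Tnfsf8 (0.48 to 1.77) and Tnfrsf12a (0.23 to 0.78) lie right of 0 and the other 13 cross it, but none passed after adjustment. Tnfsf8 reached 1 FPKM in Pdgfra-cre libraries only, so its side of 0 was partly fixed by the filter.

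Among the ligands, Tnfsf13b was the most abundant. It encodes BAFF, the survival factor of B cells (chromosome 8, 10006467 to 10039072, mm10). It measured 107, 88.4 and 111 FPKM in control libraries 8, 9 and 43, and 69.0, 106 and 73.4 in Pdgfra-cre libraries 13, 23 and 25. Libraries 13 and 25 lay below every control, and library 23 lay among the controls, so the groups overlapped. The means were 102 ± 11.8 and 82.8 ± 20.2 FPKM (SD, n = 3 each), with a log2 fold change of -0.32 (95% interval -0.71 to 0.075; limma adjusted p = 0.566). The change was -0.51 without library 23 (adjusted p = 0.286) and -0.20 without library 13 (adjusted p = 0.799). Tnfsf13b is known as interferon-inducible, but the part of interferon in these values was not tested.

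The receptors of BAFF were nearly absent. Tnfrsf13b and Tnfrsf17, which encode TACI and BCMA of B and plasma cells, were listed at 0 in all 6 libraries. Tnfrsf13c, which encodes the BAFF receptor, had 0.430 and 0.139 FPKM in control libraries 8 and 9 and was listed at 0 in the other 4. B or plasma cell markers (6) summed to 1.80 to 10.9 FPKM over the libraries, most of it Jchain. Tnfsf13, which encodes the related ligand APRIL, was listed at 0 in control library 8, measured 4.10 and 3.33 FPKM in control libraries 9 and 43, and 1.74, 0.421 and 0.875 in libraries 13, 23 and 25. Its log2 fold change of -0.53 had a 95% interval of -1.82 to 0.75 (limma adjusted p = 0.812). It was -1.28 without control library 8, -0.31 without library 23 and -0.033 with array weights. Its controls spanned the whole range of values.

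Tnfsf9 encodes the ligand of 4-1BB, a costimulatory receptor of T and NK cells (chromosome 17, 57105325 to 57107757). It measured 85.1, 69.4 and 70.0 FPKM in controls 8, 9 and 43 and 82.2, 62.7 and 86.3 in libraries 13, 23 and 25. The groups lay within each other, at 74.8 ± 8.88 and 77.1 ± 12.6 FPKM (SD, n = 3 each), and the log2 fold change of 0.035 had a 95% interval of -0.31 to 0.38 (limma adjusted p = 0.963). Its receptor gene Tnfrsf9 lay between 0 and 1.39 FPKM and reached 1 in library 23 only. An opposite-strand gene, Gm11110, shares 14.9% of the exon bases of Tnfsf9 and was listed at 0 to 4.60 FPKM, far below Tnfsf9.

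Tnfsf12 encodes TWEAK, the ligand of the receptor Fn14 (chromosome 11, 69686250 to 69695849). It measured 8.43, 6.43 and 6.97 FPKM in controls 8, 9 and 43 and 8.85, 12.3 and 9.07 in libraries 13, 23 and 25. All 3 Pdgfra-cre values lay above the controls, but library 13 exceeded control 8 only slightly. The log2 fold change was 0.41 ± 0.20 (SE; 95% interval -0.034 to 0.86; limma adjusted p = 0.503) and was 0.27 without library 23. Tnfsf12 and Tnfsf13 share 48.3% and 60.0% of their exon bases with the read-through gene Tnfsfm13, which was listed at 3.65 to 6.32 FPKM. The sum of these 3 genes was 14.5, 14.4 and 16.2 FPKM in controls 8, 9 and 43 and 14.2, 18.4 and 16.3 in libraries 13, 23 and 25. That sum, taken after the values were seen, overlapped between the groups, so the separation in Tnfsf12 was not found for the locus as a whole.

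Tnfsf8 encodes the ligand of CD30, a receptor of activated lymphocytes (chromosome 4, 63831308 to 63861347). It measured 0.155, 0.759 and 0.0522 FPKM in controls 8, 9 and 43 and 1.66, 1.63 and 2.19 in libraries 13, 23 and 25. Every Pdgfra-cre value was more than the highest control, and the means were 0.322 ± 0.382 and 1.83 ± 0.313 FPKM (SD, n = 3 each). The log2 fold change was 1.13 ± 0.29 (SE; limma adjusted p = 0.199), on a scale that understates changes at such levels. It was 2.57 with a pseudocount of 0.1 and 0.36 with one of 5. Only Pdgfra-cre libraries reached 1 FPKM, so the gene could enter the test only by being higher there, and with any 1 of them left out it was not tested. By a rough estimate of depth, its values stand for about 5.09, 21.7 and 1.71 reads in the controls and 54.6, 53.6 and 77.2 in Pdgfra-cre. Its receptor gene Tnfrsf8 was listed at 0 in all libraries. T cell markers summed to 0.678 to 2.11 FPKM in controls and 1.02 to 1.90 in Pdgfra-cre. The mesothelial and smooth muscle or pericyte sums above separated the same libraries, and the neutrophil sum was above every control in libraries 13 and 23 but not in 25. Their part in the result was not tested.

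Tnfsf11 encodes RANKL, which drives osteoclasts and, in the gut, the M cells of the epithelium over lymphoid follicles. It measured 4.38, 1.63 and 0.936 FPKM in controls 8, 9 and 43 and 1.71, 2.34 and 2.18 in libraries 13, 23 and 25. The controls spread more widely than the Pdgfra-cre libraries, and all 3 of these lay within the range of controls. A log2 fold change of 0.025 had a 95% interval of -0.80 to 0.85 (limma adjusted p = 0.992). The other 5 ligands were not tested. Tnfsf4 (OX40 ligand) reached 1.71 FPKM in control library 8 and 0 to 0.662 elsewhere. Tnfsf14 (LIGHT) was 1.20 and 1.18 FPKM in libraries 13 and 23 and 0 to 0.317 in the others, including library 25. Tnfsf15 (TL1A), a ligand linked to gut inflammation, reached 1.21 FPKM in library 23 only. Tnfsf10 (TRAIL), a death ligand that interferons induce in many cells, stayed between 0.200 and 0.786 FPKM, and Tnfsf18 (GITR ligand) between 0 and 0.445.

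Among the receptors, Tnfrsf12a was the most abundant and had the lowest p of all members. It encodes Fn14, the receptor of TWEAK, a small receptor induced by injury and growth factors (chromosome 17, 23675445 to 23677468), and ranked 600 of 24346 genes by mean FPKM. It measured 117, 134 and 139 FPKM in controls 8, 9 and 43 and 196, 196 and 162 in libraries 13, 23 and 25. All Pdgfra-cre libraries lay above all controls, with means of 130 ± 11.2 and 185 ± 19.4 FPKM (SD, n = 3 each), a ratio of 1.42. The log2 fold change was 0.50 ± 0.12 (SE; 95% interval 0.23 to 0.78; unadjusted p = 0.00245 and adjusted p = 0.195 in limma). It ran from 0.41 after rescaling to TPM, which gives every library the same total, to 0.59 without library 25, where 0.276% of all genes but no member passed, with adjusted p of 0.120 to 0.478 over the 15 alternatives. It was 0.46 without library 23. The mesothelial marker sum, 1.95 to 9.66 FPKM in controls and 10.8 to 57.1 in Pdgfra-cre, moved in the same direction. The smooth muscle or pericyte sum moved in the opposite one (112 to 125 and 28.4 to 69.3), and the neutrophil sum was 1.03 to 11.0 and 10.8 to 179. The part of these cells in the result was not tested.

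The receptors of TNF itself were both expressed. The gene Tnfrsf1a encodes TNFR1, the death domain receptor found on most cells (chromosome 6, 125349362 to 125362484). It measured 148, 147 and 119 FPKM in controls 8, 9 and 43 and 129, 143 and 121 in libraries 13, 23 and 25. The groups overlapped, and the log2 fold change of -0.074 had a 95% interval of -0.36 to 0.21 (limma adjusted p = 0.892). Tnfrsf1b encodes TNFR2, which lacks a death domain and is best known on leukocytes (chromosome 4, 145213463 to 145246870). It measured 19.0, 23.1 and 23.7 FPKM in controls and 28.4, 26.8 and 22.8 in libraries 13, 23 and 25. Libraries 13 and 23 lay above every control, and library 25 did not. The log2 fold change was 0.24 (95% interval -0.11 to 0.58; limma adjusted p = 0.648), and 0.14 without control library 8.

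**Figure D3:**
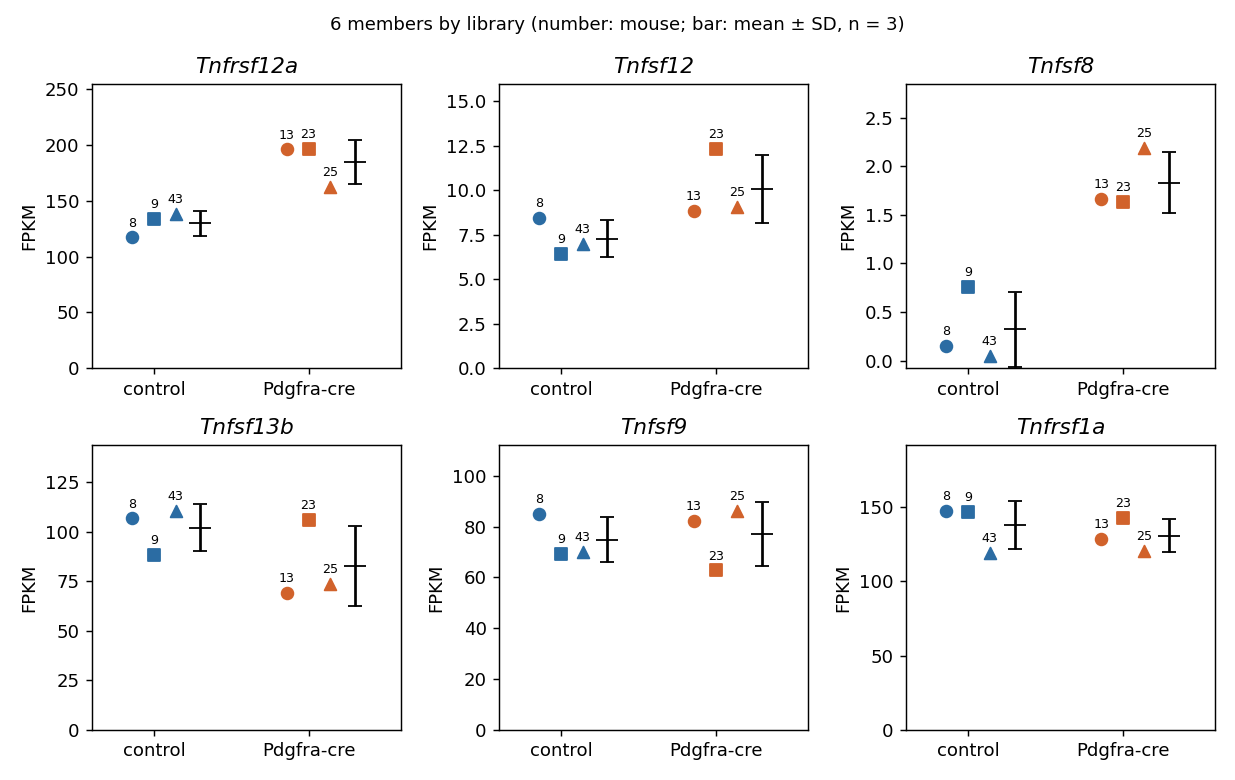
FPKM of 6 members in each library, with the mouse number over each point and a bar for the mean ± SD of 3 libraries. Tnfrsf12a, Tnfsf12 and Tnfsf8 (top) show no overlap between the groups, while Tnfsf13b, Tnfsf9 and Tnfrsf1a (bottom) overlap.

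Tnfrsf11b encodes osteoprotegerin, the secreted decoy of RANKL and TRAIL (chromosome 15, 54250619 to 54278484). It measured 30.9, 30.9 and 35.1 FPKM in controls 8, 9 and 43 and 26.8, 49.1 and 33.0 in libraries 13, 23 and 25. Library 23 alone lay above the controls, and the log2 fold change went from 0.12 (limma adjusted p = 0.891) to -0.11 without it. The signalling receptor of RANKL, Tnfrsf11a, lay between 0 and 0.319 FPKM. In every library the decoy gene was well above its ligand gene.

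In the TRAIL system, the decoy gene Tnfrsf23 was more abundant than the death receptor gene in every library. Tnfrsf23, which encodes a decoy TRAIL receptor of the mouse, measured 4.23, 3.94 and 2.93 FPKM in controls 8, 9 and 43 and 2.39, 5.65 and 4.22 in libraries 13, 23 and 25. Its lowest and highest values were both in the Pdgfra-cre group. The neighbouring decoy gene Tnfrsf22 measured 0.202, 1.65 and 0.816 FPKM in controls and 0.966, 1.10 and 1.70 in libraries 13, 23 and 25, and Tnfrsf26, of the same cluster on chromosome 7, lay between 0.762 and 1.70. Their log2 fold changes were 0.072, 0.31 and 0.081 (limma adjusted p = 0.956, 0.809 and 0.946), with all intervals crossing 0. That of Tnfrsf22 was 0.025 without control library 8. These 3 genes resemble each other, and the counting may have split reads among them. Tnfrsf10b, the only death receptor for TRAIL in the mouse, stayed between 0.174 and 1.12 FPKM and was not tested. It lay below Tnfrsf23 in 6 of 6 libraries, but above Tnfrsf22 in control library 8 (0.739 against 0.202 FPKM).

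Tnfrsf19 and Tnfrsf21 were low but tested. Tnfrsf19 encodes TROY, a receptor also known as a target of WNT signalling in crypt stem cells. It measured 3.42, 3.35 and 3.22 FPKM in controls 8, 9 and 43 and 4.07, 1.94 and 0.868 in libraries 13, 23 and 25. Its controls differed little (SD 0.0972), while the Pdgfra-cre libraries lay on both sides of them (SD 1.63). The log2 fold change of -0.51 had a 95% interval of -1.29 to 0.26 (limma adjusted p = 0.661), and was -0.88 without library 13 and -0.16 without library 25. Tnfrsf21 (death receptor DR6) measured 1.25, 2.35 and 0.957 FPKM in controls and 2.15, 1.90 and 1.65 in libraries 13, 23 and 25, with a log2 fold change of 0.24 (limma adjusted p = 0.828) that ran from 0.076 without control library 43 to 0.46 without control library 9.

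The lymphocyte-type receptors did not reach the threshold. Tnfrsf18, which encodes GITR of regulatory T cells, was 5.27 FPKM in library 23 and 1.37 in control library 9, with 0 to 0.376 in the other 4. The opposite-strand gene Gm16008 shares 27.2% of the exon bases of Tnfrsf18. It was not among the deposited genes, and the libraries do not keep strand, so its part in these values is unknown. Tnfrsf14 (HVEM) lay between 0.150 and 0.909 FPKM, Tnfrsf4 (OX40) between 0 and 0.663, and Tnfrsf25 (DR3, the TL1A receptor) between 0 and 0.897. In all, 3 receptors were listed at 0 in every library and 8 of 20 never reached an FPKM of 1. The highest values of Tnfrsf18, Tnfrsf9 and Tnfsf15 were all in library 23, where the neutrophil sum was 179 FPKM and the markers of other leukocytes (4) summed to 11.0, against 0.946 to 4.08 in the other libraries. The mesothelial, macrophage or dendritic cell, epithelial and B or plasma cell sums were also highest there, at 57.1, 36.9, 13.3 and 10.9 FPKM. The T cell sum was not, at 1.90 FPKM against 2.11 in control library 8. The part of these cells in the values was not tested.

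Ratios of 2 members were taken within each library. The log2 ratio of Tnfsf11 to its decoy Tnfrsf11b, with 1 added to both FPKM values, was -2.57, -3.60 and -4.22 in controls 8, 9 and 43 and -3.36, -3.90 and -3.42 in libraries 13, 23 and 25. The ratio of Tnfrsf1a to Tnfrsf1b was 2.60 ± 0.31 for controls and 2.29 ± 0.13 for Pdgfra-cre, and that of Tnfsf12 to Tnfrsf12a was -3.99 ± 0.29 and -4.08 ± 0.22 (SD, n = 3 each). All 3 ratios overlapped between the groups. Exact two-sided permutation tests gave p = 1, 0.3 and 0.7 in that order, or 1, 0.9 and 1 after adjustment over the 3 ratios, and 3 libraries against 3 cannot give less than 0.1. The added 1 matters for Tnfsf11, which is low, and the difference in its log2 ratio between the groups was -0.096, or -0.013 with 0.1 added and -0.13 with 5.

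The list of other TNF pathway genes held 7 ligands, 8 receptors and 30 adaptors and regulators, of which 1, 5 and 29 were tested. In limma 0 of these 35 passed, against 0% of all tested genes, and 2 had an unadjusted p under 0.05 (Nfkb2 and Tab1), against 11.0%. Without library 23 none of the list did, by the same limma test, against 9.21% of all tested genes. Their median change was -0.053 on the log2 scale, with 15 above 0 and 20 below. Groups did not overlap in 3 of them, 1 higher (Rnf31) and 2 lower (Traf3 and Sharpin) in Pdgfra-cre, against 8.07% and 8.29% of all tested genes.

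Of the other ligands, Tnf itself was scarce. It measured 0.523, 0.337 and 0.226 FPKM in controls 8, 9 and 43 and 1.16, 0.590 and 0.765 in libraries 13, 23 and 25. All 3 Pdgfra-cre values lay above the controls, but the gene was below the filter and was not tested. Eda, the ectodysplasin gene, lay between 1.96 and 4.15 FPKM (limma adjusted p = 0.809). Lta, Fasl and Cd70 were listed at 0 in all libraries, Cd40lg lay between 0 and 0.200 FPKM, and Ltb, a lymphotoxin chain, between 0 and 1.16.

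Several of the other receptors were well expressed. Ltbr, the lymphotoxin beta receptor gene that shapes lymphoid stroma, had means of 42.1 ± 6.48 FPKM in the controls and 38.3 ± 5.26 FPKM in the Pdgfra-cre group (SD, n = 3 each). Fas, the receptor of Fas ligand, was 33.3, 28.9 and 27.3 FPKM in controls 8, 9 and 43 and 29.1, 60.4 and 25.8 in libraries 13, 23 and 25, so library 23 alone was high. Cd40 lay between 5.06 and 8.64 FPKM, Eda2r between 2.24 and 5.98, and Relt between 0.136 and 2.34. Their log2 fold changes were -0.13 for Ltbr, 0.26 for Fas, 0.27 for Cd40, 0.47 for Eda2r and 0.65 for Relt, with limma adjusted p of 0.579 to 0.843. Cd27, Ngfr and Edar never reached 1 FPKM.

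Downstream genes were expressed with few exceptions. The most abundant were Tnfaip3, which encodes the NF-kB inhibitor A20 (61.1 to 97.9 FPKM), Birc3, the ubiquitin ligase gene cIAP2 (47.3 to 77.5), and Rbck1, the HOIL-1 subunit gene of the linear ubiquitin ligase (30.9 to 53.1). The lowest unadjusted p with higher values in Pdgfra-cre were those of Nfkb2 (16.6 ± 4.19 and 23.3 ± 4.49 FPKM), a subunit gene of the noncanonical NF-kB pathway, Rnf31 (6.98 ± 0.607 and 10.2 ± 2.68), the catalytic subunit gene of the linear ubiquitin ligase, and Birc3 (55.2 ± 6.90 and 67.4 ± 9.70). Those with lower values were Tab1 (9.26 ± 2.48 and 5.56 ± 1.34), a partner of the kinase TAK1, Traf3 (5.47 ± 1.19 and 3.74 ± 0.551), an adaptor that restrains noncanonical NF-kB, and Sharpin (13.4 ± 0.858 and 11.3 ± 0.954; SD, n = 3 each). Their limma adjusted p lay between 0.368 and 0.668.

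**Figure D4:**
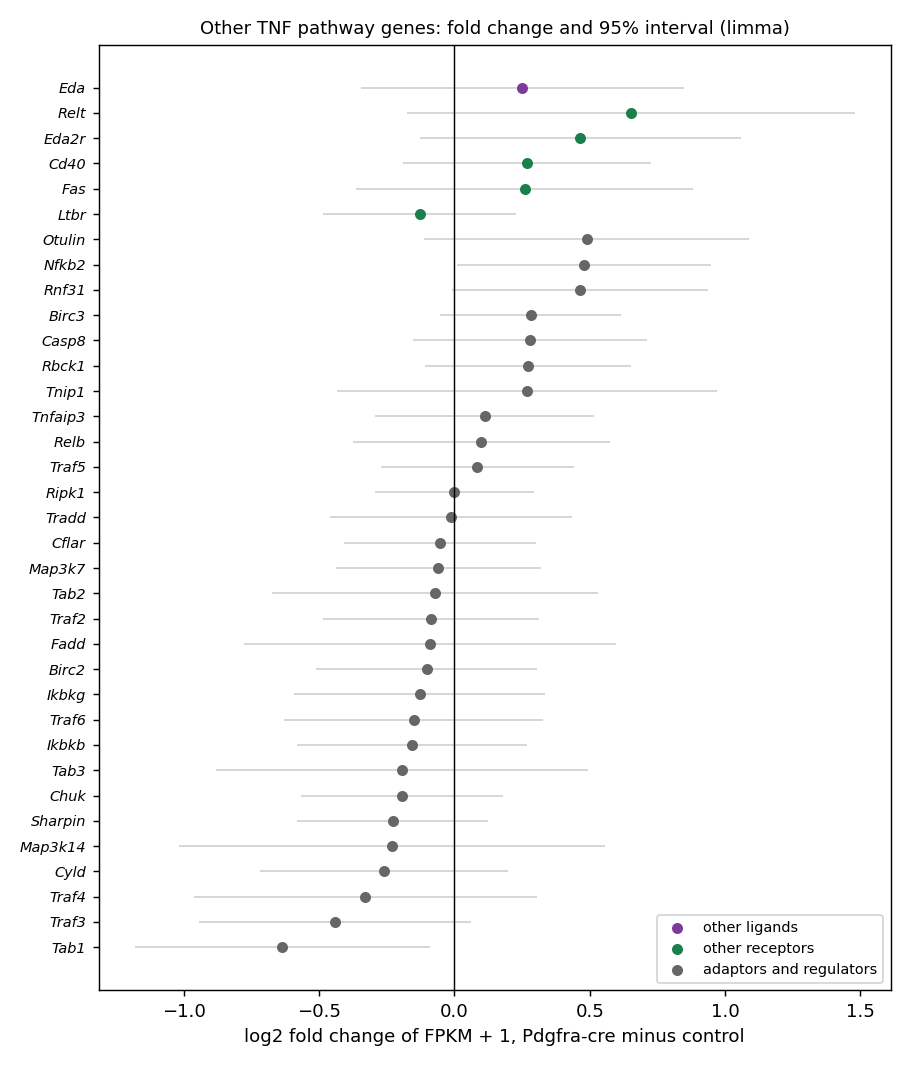
Log2 fold change of FPKM + 1, Pdgfra-cre minus control, with 95% intervals from limma, for the 35 tested genes of the wider TNF pathway (purple, ligand; green, receptors; grey, adaptors and regulators). Most intervals cross 0, and those of Nfkb2 and Tab1, which do not, belong to genes with adjusted p of 0.441 and 0.368 (unadjusted p of 0.141 and 0.0679 without library 23).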

How the data were processed

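The authors deposited FPKM values, fragments scaled to transcript length and to mapped fragments, in 1 table per library. Per the labels' protocols, total RNA was amplified as full-length cDNA and tagmented, which does not keep strand. Per the submitters' processing notes, TopHat2 2.1.1, Bowtie2 2.2.8, SAMtools 0.1.18 and Cuffdiff 2.2.1 were used with mm10; the annotation release is not given in the sources used here, nor are read totals. From low values of genes with 1 transcript, 1 read per kilobase was put at about 0.108 to 0.133 FPKM, sought only between 0.06 and 0.2. Reads behind a value used exon lengths from GENCODE M21, whose GRCm38 assembly is mm10.

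Genes for which 3 or more libraries reached 1 FPKM were tested with limma 3.58.1 (R 4.3.3) on log2(FPKM + 1), with a variance trend and a threshold of 0.05 after Benjamini-Hochberg adjustment. The procedure was tested on simulated data with shifts larger than the change of any member in the main fit. These shifts were placed only in genes above the lowest levels. The simulation therefore does not show how well smaller differences, or differences in low genes, would be detected. Every tested member was named, as were the tested pathway ligands and receptors, the 3 adaptors with the lowest p per direction and the 3 most abundant. Members and lists were chosen with earlier results of these data known. Promoter windows were found for 24 of 31 members. Motifs were therefore not searched for Tnfsf4, Tnfsf9, Tnfsf12, Tnfrsf10b, Tnfrsf11b, Tnfrsf22 and Tnfrsf26.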

Additional observations from a re-analysis of the deposited data

How the results depend on the processing

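No paired analysis was made, because the sample labels used here give no pairing of mice between the groups. The 15 alternatives were array weights, no variance trend, TPM, quantile normalization, median-of-ratios scaling, no filter and one of 5 FPKM, pseudocounts of 0.1 and 5, and leaving out each of the 6 libraries. No tested member and no pathway gene passed under any of them. Over all genes, leaving out 1 library gave 0 to 31 called genes: 31 without Pdgfra-cre library 25, 3 without library 13 and 2 without control library 43. The number of expressed members, 15 by the main rule, was 19 with a threshold of 0.5 FPKM, 10 with 2 FPKM and 17 with 1 TPM. It was 8 when all 6 libraries had to reach 1 FPKM, and 13 to 15 when leaving out a library. Of 208 fold changes under alternatives, 189 kept the direction and 19 did not, in 5 members with differences near 0. These were Tnfrsf23 (-0.011 as TPM, -0.083 with array weights, -0.15 to 0.34 leaving out a library), Tnfsf11 (-0.020 with a pseudocount of 5, -0.019 as TPM, -0.23 with array weights, -0.29 to 0.44 leaving out a library), Tnfsf9 (-5.1e-05 with quantile normalization, -0.062 as TPM, -0.052 to 0.17 leaving out a library), Tnfrsf11b (-0.11 to 0.31) and Tnfrsf26 (-0.065 to 0.24). The cause was not tested. The difference in log2 ratio ranged over leave-one-out from -0.48 to 0.35 for Tnfsf11 to Tnfrsf11b and from -0.19 to 0.077 for Tnfsf12 to Tnfrsf12a. Rescaling to TPM moved the median of all genes to -0.091. At the rough depth, many member values below 1 FPKM rest on few reads, such as about 1.71 for Tnfsf8 in control library 43. Others rest on more, such as about 35.7 for Tnfsf10 in library 23. Low read numbers limit the differences that could be detected.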

Other observations

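Tnfrsf1a was 1.26, 1.10 and 0.860 times Tnfrsf12a in control libraries 8, 9 and 43 and 0.658, 0.727 and 0.743 times in Pdgfra-cre libraries 13, 23 and 25. The 3 Pdgfra-cre ratios lay below all control ratios, and Tnfrsf12a was also the higher gene in control library 43. This ratio was chosen after the values were seen and is given as a description. Tnfrsf11a, the RANK gene, was 0.304, 0.319 and 0.17545 FPKM in the controls and 0.17489, 0 and 0 in libraries 13, 23 and 25. Its groups did not overlap, by a very small margin and with lower values in Pdgfra-cre. All its values were below the filter, and it was not tested.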
